A study of Mus musculus with 8 samples.

Results

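Phase II conjugation enzymes attach glutathione, glucuronic acid or sulfate to drugs, bile pigments, steroids and reactive lipids, and 64 of the 25239 genes in the count table of this study belong to them. They were taken by name, as every listed gene whose symbol begins with Gsta, Gstm, Gstp, Gstt, Gsto, Gstk, Gstz or Mgst (glutathione transferases, 25 genes), Ugt1 or Ugt2 (UDP-glucuronosyltransferases, 18 genes) or Sult (sulfotransferases, 21 genes). This family was chosen with earlier results of these data known. In intestinal epithelial cells (IECs) of CD1d-KO mice 9 of them rose and 0 fell against WT by DESeq2, which called 4.03% of all tested genes, 1.65% higher and 2.38% lower. In edgeR 3 of the 9 passed, where 0.589% of all tested genes were called higher. Members with an unadjusted p under 0.05 in DESeq2 numbered 16, all higher in CD1d-KO, and of all tested genes 15.3% had such a p, with 7.07% higher. The 9 were Mgst2, Ugt2b36, Ugt2b35, Ugt1a9, Gstk1, Ugt2b5, Gsta1, Gstm6 and Ugt2a3, and their fitted folds lay between 1.24 and 2.08. Sulfotransferases held 0 of the 9.

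The comparison asked what the lack of CD1d, and with it of natural killer T (NKT) cells, does to the small intestinal epithelium. The 4 CD1d-KO mice (genotype label CD1d1/2 KO) carried a germline deletion of Cd1d1 and Cd1d2, so CD1d was missing from the epithelium itself as well as from the cells that select NKT cells, and the 4 WT mice were C57BL/6Jax. Per the study's methods the mice were 7 to 10 weeks old, untreated, of both sexes and matched for age and sex. They were not littermates, and by the sex-linked counts given below the sequenced mice were not matched for sex. Each sample held 150000 crypt-derived cells of the proximal small intestine of 1 mouse, sorted for EpCAM and against CD45, CD31, Ter119 and a dead-cell dye, and 2 experiments supplied the samples without a label for which.

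Conjugation follows, or takes the place of, oxidation by cytochrome P450 enzymes and makes a compound more soluble in water, so that transporters can export it. Glutathione transferases (GSTs) join reduced glutathione to electrophiles, UDP-glucuronosyltransferases (UGTs) of the endoplasmic reticulum join glucuronic acid from UDP-glucuronic acid, and cytosolic sulfotransferases (SULTs) join sulfate from the donor PAPS. The epithelium of the small intestine carries these enzymes mainly in absorptive enterocytes, where they meet food compounds and drugs before the liver does.

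Total counts per library ran from 23610266 to 31629435. Cd1d1 had normalised counts (counts divided by the DESeq2 size factor of the library) of 7.15, 2.86, 4.89 and 0 in CD1d-KO 1 to 4 and of 79.5, 73.4, 91.1 and 61.1 in WT 1 to 4, which fits the genotype labels. Counts of Y-linked genes were found in CD1d-KO 1 and 2 and in none of the other 6 mice beyond 1 read. The sex-linked gene Xist had 67.9, 50.5, 21985 and 35403 normalised counts in CD1d-KO 1 to 4. In WT 1 to 4 it had 31436, 27536, 29657 and 30879. By these genes CD1d-KO 1 and 2 were male and the other 6 mice, among them all 4 WT, were female. Markers of stomach epithelium summed to 801 to 1580 normalised counts in CD1d-KO, compared with 2359 to 15198 in WT, leukocyte markers to 902 to 1077 and 1119 to 2530, and enterocyte markers to 234105 to 369135 and 252913 to 321825. Of the enterocyte markers 18 of 21 had a higher fitted value in CD1d-KO, with a median log2 fold change of 0.18, and 0 were called by DESeq2, 5 having an unadjusted p under 0.05. Paneth cell markers were called higher for 4 of 12, with a median of 0.71. Of 12 tested stomach markers 6 were called lower and 1 higher, and of 13 tested leukocyte markers 5 were called lower and 0 higher. DESeq2 called 1.65% of all tested genes higher and 2.38% lower. The part of these differences in the results below was not tested beyond the fits named there, and in bulk samples fewer cells of a type and less RNA per cell cannot be told apart.

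Most conjugation enzymes outside the sulfotransferase family were on in these cells. Of the 64 genes, 38 were detected (a mean of at least 10 counts over the 8 samples), namely 23 of 25 glutathione transferases, 9 of 18 UGTs and 6 of 21 sulfotransferases. The 13 genes without a count in any library were Sult1e1 (estrogen sulfotransferase), Sult2a1 to Sult2a7 (the steroid and bile acid sulfotransferases known from liver), Sult3a1, Sult3a2, Sult5a1, Ugt2a1 and Ugt2a2 (the olfactory forms), and a count of 0 allows up to 3 counts per library. The other 13 undetected genes, among them Gsto2, Gstt4, Sult4a1, Ugt1a2, Ugt1a5, Ugt1a6b, Ugt1a10 and Ugt2b1, had 0 to 18 counts per library.

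Levels were compared per length, as counts per kilobase of exon that no other gene shares, per 1000000 counts of the library. Gsto1, the omega class enzyme that reduces dehydroascorbate, had the highest level at 362 ± 6.73 (SD over 8 mice), 15.7% of the summed level of all members. Ugt2b34 (205 ± 21.3), Mgst3 (193 ± 21.8), Mgst2 (174 ± 45.2) and Mgst1 (166 ± 15.8) followed, and their ranges over the 8 mice overlapped in that order. The first 10 genes held 72.9% of the summed level. At the low end of the detected genes stood Sult1a1, the main phenol sulfotransferase of liver, at 2.79 ± 1.1, and Gsta2 at 1.47 ± 0.451. Of the stretches of 50 bases in the Gsta2 transcript 40.5% also occur in other genes, and the effect on its level was not tested. The 9 genes that rose were spread over the whole order, from Mgst2 in 4th place to Ugt1a9 in 35th.

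**Figure D1:**
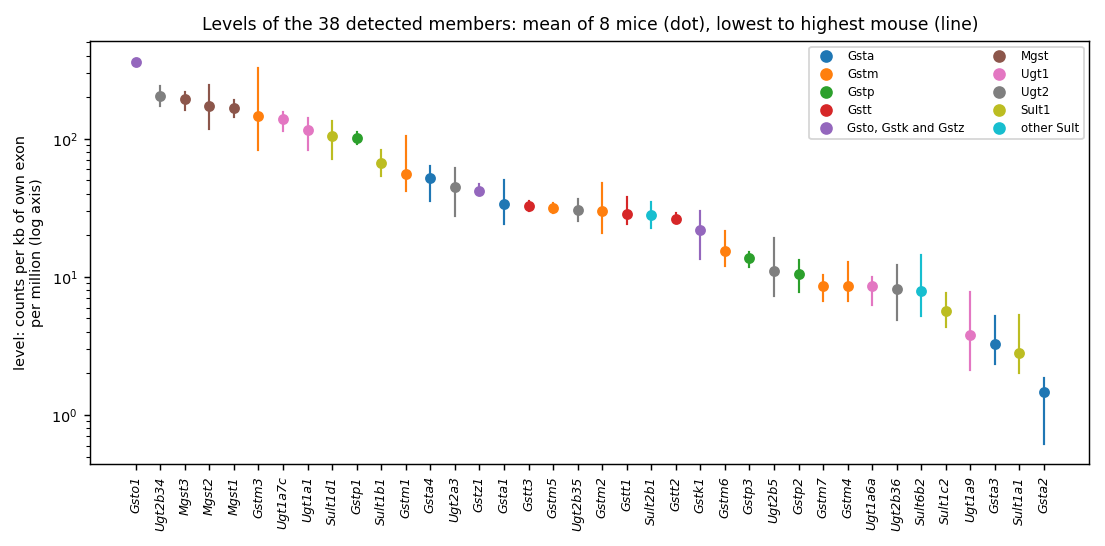
Level of the 38 detected conjugation enzymes (y axis, counts per kilobase of unshared exon per 1000000 counts, log scale), ordered from highest to lowest and coloured by class. Dots are means of 8 mice and lines run from the lowest to the highest mouse, from 362 for Gsto1 to 1.47 for Gsta2.

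A larger share of conjugation enzymes than of all genes was called higher in CD1d-KO, a difference between shares that was not tested. DESeq2 with Benjamini-Hochberg adjustment tested 47 of the 64 genes and called 9 of them (19.1%) at an adjusted p under 0.05, while of all 15446 tested genes it called 4.03%, with 1.65% higher and 2.38% lower in CD1d-KO. The median log2 fold change was 0.17 over the 47 genes and 0.00 over all tested genes, and 37 of the 47 had a higher fitted value in CD1d-KO. The normalised counts of all CD1d-KO mice lay above those of all WT mice for 9 members and below for 0, against 4.09% and 5.52% of all tested genes. By edgeR, with the same adjustment, 3 members were called, all higher (Mgst2, Ugt2b35 and Ugt2b36), against 0.589% of genes called higher by that tool.

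By class, the UGT2 family had 4 of 7 tested genes called, with a median log2 fold change of 0.31. The alpha, mu, microsomal and UGT1 classes and the group of omega, kappa and zeta enzymes had 1 called gene each, with medians of 0.49, 0.28, 0.09, 0.46 and 0.10. The pi and theta classes, the Sult1 family and the other sulfotransferases had 0, with medians of 0.04, 0.06, 0.17 and -0.04. These medians include tested genes below the detection limit. With a filter of 10 counts in 4 samples the median was 0.26 for UGT1 and 0.49 for UGT2. No test compared the classes with each other.

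**Figure D2:**
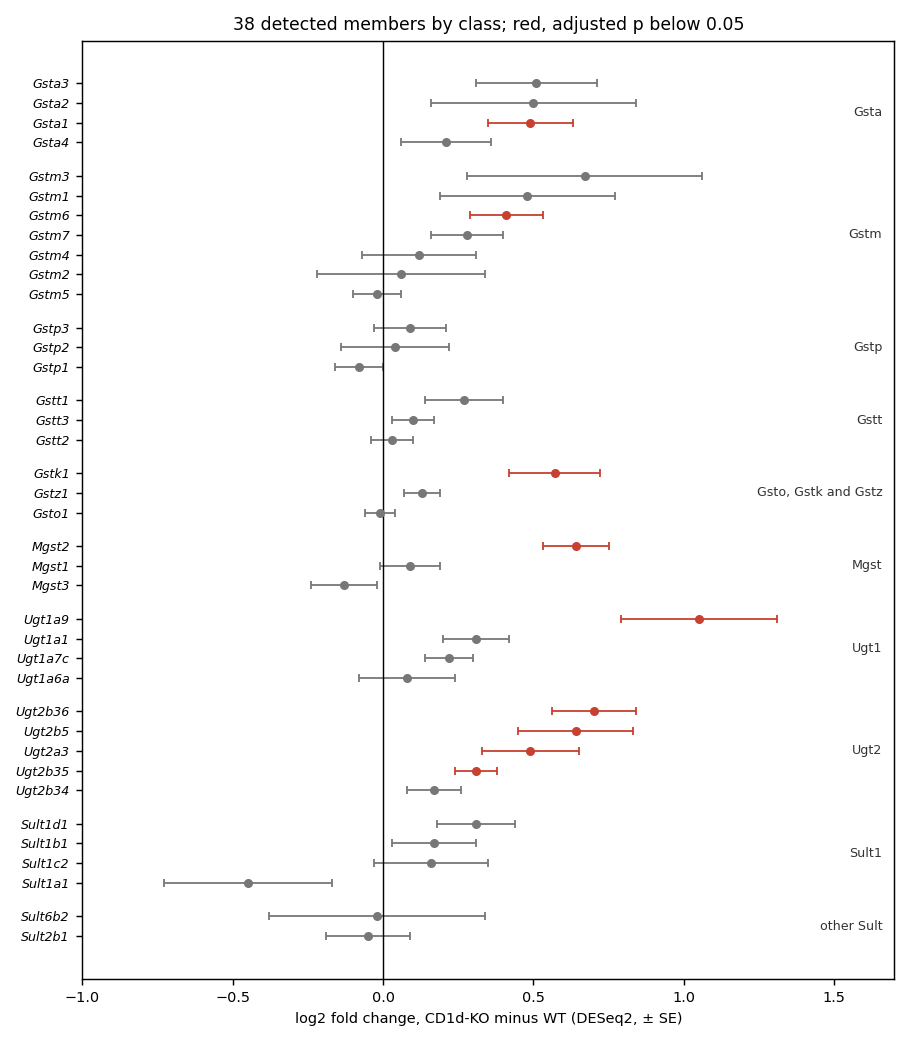
Log2 fold change of CD1d-KO minus WT (x axis, DESeq2, bars ± SE) of the 38 detected members by class, each class ordered by its values. Red marks the 9 members with an adjusted p under 0.05, all on the right of 0, from 0.31 for Ugt2b35 to 1.05 for Ugt1a9.

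CD1d-KO 3 and WT 1 stood apart for these genes. CD1d-KO 3 was the highest of the 8 mice for 21 of the 38 detected members (55.3%) and for 17.7% of all 13710 detected genes. WT 1 was the lowest for 22 (57.9%) and for 17.2% of all detected genes. Its enterocyte score (the mean log2 deviation of the markers) was -0.221, within the WT range, and that of CD1d-KO 3 was 0.377, the highest of the 8. The number of called members was 5 without CD1d-KO 3, without WT 1 and also without WT 4.

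**Figure D3:**
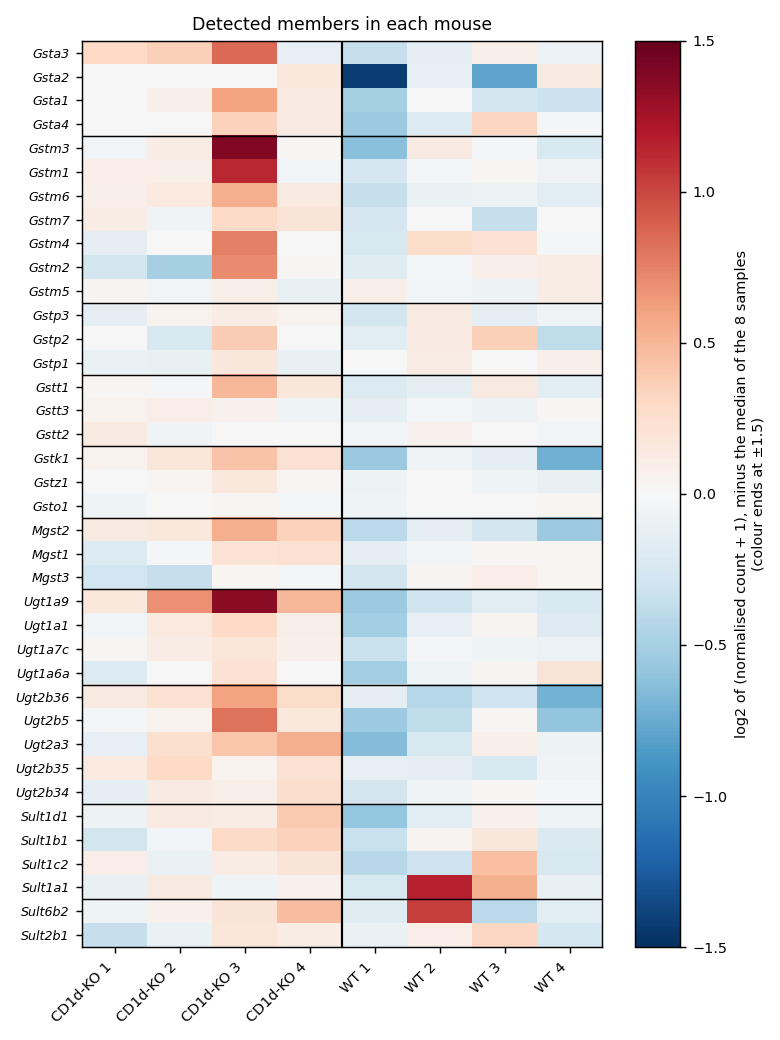
Each detected member (rows, by class) in each mouse (columns, CD1d-KO on the left), as log2 of the normalised count plus 1, minus the median of the 8 mice. The CD1d-KO 3 column is the darkest red, above all in Gstm3, Ugt1a9 and Gstm1, and the WT 1 column is blue in most rows.

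The 2 CD1d-KO mice with Y-linked counts also differed from the other 2. The mean was higher in the mice without them for 33 of 38 detected members (86.8%), against 51.4% of all detected genes, and the 2 and 2 mice did not overlap for 20 of the 38 (52.6%), all higher without Y-linked counts, against 23.6% of all detected genes higher and 23.4% lower. Gstm2, a mu class enzyme, had 1157 normalised counts without and 669 with them. One of the 2 mice without Y-linked counts was CD1d-KO 3, so the effect of sex and that of this mouse cannot be told apart. With CD1d-KO 1 and 2 left out, 9 members were called: Gstt1 came in and Ugt2b35 went out.

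Mgst2 was the member with the smallest adjusted p. Microsomal glutathione transferase 2 sits in the membrane of the endoplasmic reticulum and can also join glutathione to leukotriene A, which gives a cysteinyl leukotriene. It lies on chromosome 3 at 51661179 to 51682674 (mm10, plus strand), 35.3 megabases from Cd1d1 on the same chromosome. Its normalised counts were 3269, 3325, 4331 and 3791 in CD1d-KO 1 to 4 and 2266, 2693, 2440 and 2031 in WT 1 to 4. All CD1d-KO mice were above all WT mice. The log2 fold change was 0.64 ± 0.11 (SE, adjusted p = 1.55e-06), a fold of 1.56 with a 95% interval of 1.34 to 1.81, and edgeR gave an adjusted p of 0.0116. Mgst2 was called in all 8 fits that left out 1 mouse.

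The other microsomal enzymes did not pass the test. Mgst3, which acts on lipid hydroperoxides, had 5804 ± 759 normalised counts (SD, n = 4) in CD1d-KO against 6354 ± 712 in WT, a log2 difference of -0.13 ± 0.11 (adjusted p = 0.644, fold interval 0.79 to 1.06). Mgst1 had a log2 difference of 0.09 ± 0.10 (adjusted p = 0.75).

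Gstk1 rose as well. The kappa class enzyme is found in mitochondria and peroxisomes rather than the cytosol, and its gene lies on chromosome 6 at 42245935 to 42250441. Normalised counts were 620, 677, 809 and 701 in CD1d-KO, compared with 406, 578, 543 and 363 in WT, with no overlap between genotypes. The log2 fold change was 0.57 ± 0.15 (adjusted p = 0.00708, fold interval 1.21 to 1.81), and it passed in all 8 fits without 1 mouse, but edgeR gave an adjusted p of 0.0828. Gsto1 had 12222 ± 319 in CD1d-KO against 12289 ± 378 in WT, with a fold interval of 0.93 to 1.06 (adjusted p = 0.976). Gstz1, the maleylacetoacetate isomerase of tyrosine breakdown, had 2056, 2087, 2279 and 2069 in CD1d-KO, compared with 1922, 2018, 1934 and 1884 in WT. These did not overlap, but the log2 difference of 0.13 ± 0.06 did not pass the adjustment (adjusted p = 0.276).

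All 4 alpha class genes, which act on lipid peroxidation products and steroids, had higher fitted values in CD1d-KO, and 1 was called. Gsta1, on chromosome 9 at 78230669 to 78242683, had 840, 884, 1264 and 910 normalised counts in CD1d-KO against 590, 831, 688 and 670 in WT. The lowest CD1d-KO mouse was just above the highest WT mouse. The log2 fold change was 0.49 ± 0.14 (adjusted p = 0.0226). It lost the call without CD1d-KO 3 (adjusted p = 0.0696), without WT 1 (0.111), WT 3 (0.0664) or WT 4 (0.0739), and by edgeR (0.115). Of the 50-base words of the Gsta1 transcript 91.2% also occur in other genes, mostly in Gsta13, which the count table does not list, so its reads may come from more than 1 gene. Gsta4, the alpha class gene of highest mean level and the main enzyme for hydroxynonenal, had 1524 ± 179 in CD1d-KO, compared with 1321 ± 331 in WT (log2 difference 0.21 ± 0.15, adjusted p = 0.588). Its level of 51.6 ± 9.42 overlapped between mice with the 33.7 ± 8.14 of Gsta1. Whether shared sequence lowered the level of Gsta1 was not tested. Gsta2 and Gsta3 had log2 differences of 0.50 ± 0.34 and 0.51 ± 0.20, and neither passed (adjusted p = 0.527 and 0.163).

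The mu class genes lie together on chromosome 3, 20.9 to 21 megabases from Cd1d1, and 1 of the 7 was called. Gstm6, at 107938848 to 107943749, had 519, 546, 721 and 536 normalised counts in CD1d-KO against 388, 458, 464 and 438 in WT. The genotypes did not overlap. The log2 fold change was 0.41 ± 0.12 (adjusted p = 0.0309), and the call was lost in 6 of the 8 fits without 1 mouse, with adjusted p from 0.0507 without WT 3 to 0.148 without WT 1, and by edgeR (0.114).

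Gstm3 and Gstm1, the mu class genes of highest level, had the greatest spread. Gstm3 had 4213, 4663, 11341 and 4388 in CD1d-KO, compared with 2785, 4743, 4251 and 3673 in WT, so that CD1d-KO 3 held 2.57 times the mean of the other CD1d-KO mice. Gstm1 had 2054, 2050, 4204 and 1865 against 1610, 1887, 1953 and 1852. In both genes CD1d-KO 3 alone was far above WT and the other 3 CD1d-KO mice were within or close to the WT range. The log2 differences were 0.67 ± 0.39 and 0.48 ± 0.29 (adjusted p = 0.431 and 0.459), and without CD1d-KO 3 they were 0.19 and 0.12. Without that mouse the median of the mu class moved from 0.28 to 0.12. Gstm5 had 737 normalised counts in that mouse and 644 to 749 in the others, a log2 difference of -0.02 ± 0.08 between genotypes (adjusted p = 0.953). Part of the Gstm1 and Gstm3 sequence (16.5% and 26.8% of 50-base words) is also found in pseudogenes and other mu genes.

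Of the pi and theta class genes 0 were called by DESeq2 or edgeR, and 1, Gstt1, had an unadjusted p under 0.05. Gstp1, the main pi class enzyme, had 1988, 1984, 2408 and 1983 normalised counts in CD1d-KO against 2123, 2310, 2147 and 2253 in WT (log2 difference -0.08 ± 0.08, adjusted p = 0.743). It shares 56.3% of its 50-base words with Gstp2. Gstp3 had 323 ± 23.4 and 303 ± 35.6 (log2 difference 0.09 ± 0.12, adjusted p = 0.815). Gstt1, the theta class enzyme that acts on halogenated methanes, had 865, 842, 1206 and 959 in CD1d-KO, compared with 735, 776, 933 and 763 in WT. The groups overlapped and the log2 difference of 0.27 ± 0.13 did not pass (adjusted p = 0.257). Gstt3 had 1838 ± 89.8 and 1718 ± 87.6 (log2 difference 0.10 ± 0.07, adjusted p = 0.546).

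The UGT1 genes are alternative first exons on chromosome 1, from 88055411 to 88220002, each spliced to the same downstream exons. Read pairs that touch exons of several genes were left out of the counts, so the values stem mainly from the first exons and the shared bases (2316 in Ugt1a1) are not in the levels. Of the 50-base words of the first exon, transcripts of other genes hold 1.3% for Ugt1a7c, 0% for Ugt1a1, 6.1% for Ugt1a9 and 94.5% for Ugt1a6a, or 47.4% for Ugt1a6a without the 1 GENCODE transcript of Ugt1a7c that uses the same exon, so the Ugt1a6a counts are less certain. Ugt1a7c (138 ± 13.5) and Ugt1a1 (115 ± 17.8), the bilirubin-conjugating form, held 52.2% and 43.1% of the family level, Ugt1a6a had 8.52 ± 1.2 and Ugt1a9 3.8 ± 1.88. The levels of Ugt1a7c and Ugt1a1 overlapped between mice.

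All 7 tested UGT1 genes had higher fitted values in CD1d-KO and 1 was called. Ugt1a9, which conjugates phenols, had 88.5, 128, 203 and 112 normalised counts in CD1d-KO, compared with 54, 63.9, 70.8 and 67.2 in WT. It had the greatest fold of the 9, with a log2 fold change of 1.05 ± 0.26 (adjusted p = 0.0025, fold interval 1.47 to 2.94). The call held in all 8 fits without 1 mouse, and the value without CD1d-KO 3 was 0.77, while edgeR gave an adjusted p of 0.0572.

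The 2 abundant forms came close to the threshold. Ugt1a7c had 3935, 4198, 4416 and 4118 in CD1d-KO against 3099, 3849, 3713 and 3647 in WT. These did not overlap, with a log2 difference of 0.22 ± 0.08 (adjusted p = 0.0923, fold interval 1.05 to 1.30). Ugt1a1 had 2961, 3377, 3755 and 3228 against 2141, 2799, 3124 and 2668, a log2 difference of 0.31 ± 0.11 (adjusted p = 0.0998). WT 1 was the lowest for both. Ugt1a6a had 248 ± 29.8 and 235 ± 45.5 (0.08 ± 0.16, adjusted p = 0.905). Ugt1a2, Ugt1a5 and Ugt1a6b had at most 10 counts in a library and adjusted p of 0.809, 0.929 and 0.719. Ugt1a10 had at most 1 count and no adjusted p.

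**Figure D4:**
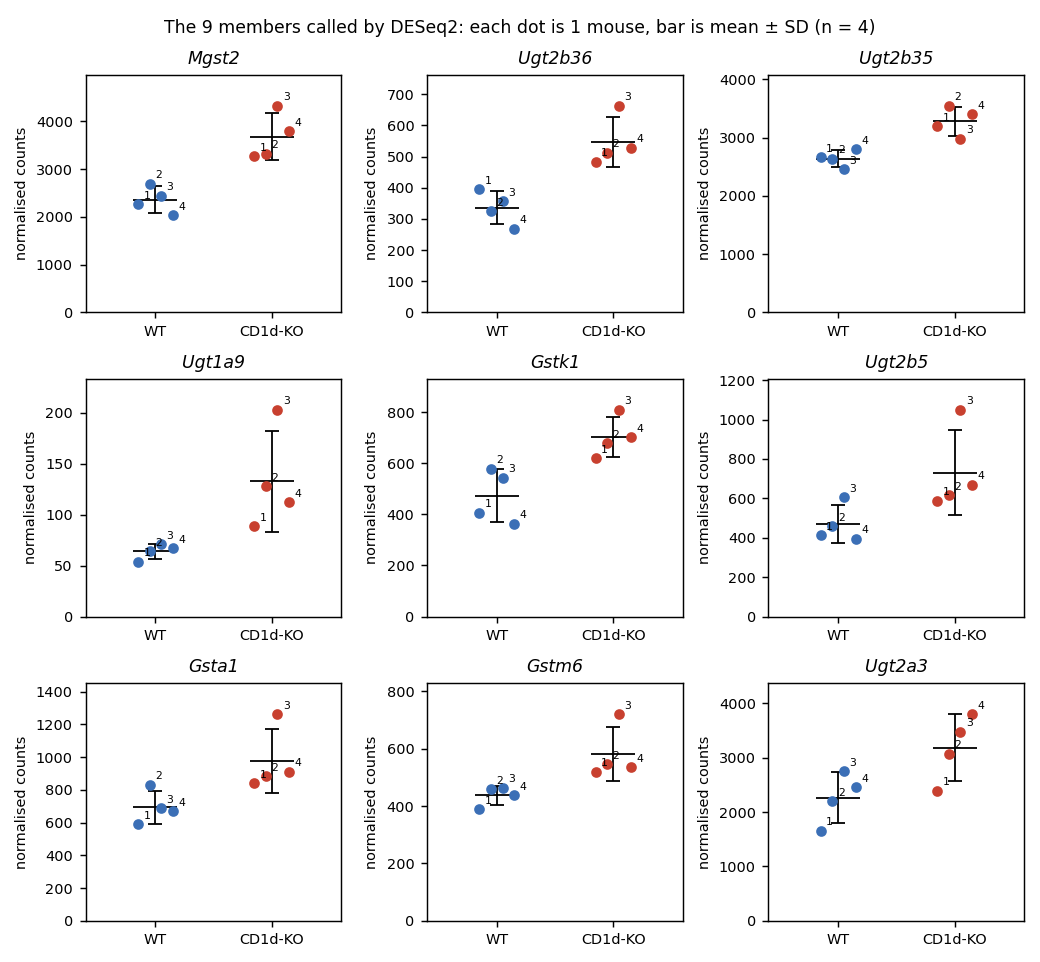
Normalised counts (y axis, from 0) of the 9 called members in each of the 4 WT (blue) and 4 CD1d-KO mice (red), with replicate numbers, means and SD. In 7 of the 9 the genotypes do not overlap, the exceptions being Ugt2b5 and Ugt2a3, and CD1d-KO 3 is the highest dot in 7.

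The UGT2 genes and 3 sulfotransferase genes form 1 cluster on chromosome 5, where a gene that rose could lie beside silent ones. UGT2 enzymes conjugate steroids, bile acids and drugs. From 86889770 upward the order is Ugt2b34, Ugt2b1, Ugt2b35, Ugt2b36, Ugt2b5, Ugt2b37, Ugt2a3, Ugt2b38, Ugt2a1, Ugt2a2, Sult1b1, Sult1d1 and Sult1e1. Ugt2b34 carried 68.6% of the UGT2 level, and Ugt2b37 and Ugt2b38, on either side of Ugt2a3, had 0 to 5 counts per library.

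The starts of the detected UGT2 genes are shown because 4 of the 5 rose. They are the 60 bases before the RefSeq start on the strand of the gene (GRCm38.p6, the assembly of mm10), which for these 5 genes is the start in the count annotation. Capitals mark the longest run of bases that Ugt2b36 and Ugt2b5 have in common.
Ugt2b34: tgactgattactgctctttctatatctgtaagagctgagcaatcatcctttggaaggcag
Ugt2b35: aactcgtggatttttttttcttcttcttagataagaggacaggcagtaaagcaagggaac
Ugt2b36: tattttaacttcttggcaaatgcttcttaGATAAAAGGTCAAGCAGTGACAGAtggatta
Ugt2b5: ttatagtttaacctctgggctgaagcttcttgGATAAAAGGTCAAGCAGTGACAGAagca
Ugt2a3: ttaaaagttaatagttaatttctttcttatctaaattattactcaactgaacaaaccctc
They lie on chromosome 5 at chr5:86906938-86906997 (minus), chr5:87000800-87000859 (plus), chr5:87092556-87092615 (minus), chr5:87140341-87140400 (minus) and chr5:87337196-87337255 (minus). The shared run has 24 bases, and of 32851 RefSeq promoters of 300 bases only 3 hold it on the strand of the gene, those of Ugt2b36, Ugt2b5 and Ugt2b37. Ugt2b37 was at 0 or 1 count in each library, so the run is found in front of genes that rose and of one that was not detected. Ugt2b35 and Ugt2b36 have 32 of the 60 bases in the same position.

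Ugt2b36 had the smallest adjusted p of the family. Its normalised counts were 484, 512, 664 and 529 in CD1d-KO, compared with 396, 325, 356 and 268 in WT, without overlap. The log2 fold change was 0.70 ± 0.14 (adjusted p = 7.25e-05, fold interval 1.34 to 1.97), with an adjusted p of 0.0253 by edgeR. Ugt2b35 had 3196, 3549, 2982 and 3400 against 2662, 2638, 2459 and 2801, also without overlap. Its log2 fold change was 0.31 ± 0.07 (adjusted p = 0.00156, 0.0382 by edgeR) and CD1d-KO 3 was the lowest of its group. Both were called in all 8 fits without 1 mouse, while with only the 6 mice without Y-linked counts Ugt2b35 had an adjusted p of 0.0912.

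Ugt2b5 and Ugt2a3 passed by less. Ugt2b5 had 589, 617, 1050 and 669 normalised counts in CD1d-KO against 412, 459, 607 and 396 in WT, so that WT 3 was above the lowest CD1d-KO mouse. The log2 fold change was 0.64 ± 0.19 (adjusted p = 0.0219). It lost the call in 4 of the 8 fits without 1 mouse (adjusted p = 0.0819 without CD1d-KO 3) and by edgeR (0.129), and 31% of its 50-base words also occur in other genes, most in Ugt2b38. Ugt2a3, the form of highest level among the 4, had 2394, 3074, 3479 and 3807 against 1655, 2203, 2753 and 2462. The groups overlapped. Its log2 fold change of 0.49 ± 0.16 (adjusted p = 0.0459) lost the call in 6 of the 8 fits, with adjusted p up to 0.34 without CD1d-KO 3, and by edgeR (0.165). Ugt2b34, the main UGT2 form, had 16250, 19619, 18865 and 21279 against 14760, 17159, 17999 and 17540, a log2 difference of 0.17 ± 0.09 that did not pass (adjusted p = 0.369).

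Sulfotransferases were few, and 0 were called by DESeq2 or edgeR, 1 having an unadjusted p under 0.05. Sult1d1, a catecholamine and phenol sulfotransferase, had 6756, 7854, 7756 and 9379 normalised counts in CD1d-KO, compared with 4781, 6424, 7510 and 6833 in WT. The groups overlapped, with a log2 difference of 0.31 ± 0.13 (adjusted p = 0.185, fold interval 1.04 to 1.49). Sult1b1, which sulfates thyroid hormones and phenols, had 5540 ± 1088 and 4931 ± 794 (0.17 ± 0.14, adjusted p = 0.656). Sult1d1 and Sult1b1 held 58% and 37.3% of the Sult1 level.

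Among the other sulfotransferases, Sult2b1, the cholesterol sulfotransferase of skin and gut, had 1174 ± 188 in CD1d-KO against 1218 ± 209 in WT (log2 difference -0.05 ± 0.14, adjusted p = 0.932). Sult6b2 had 283, 309, 338 and 406 against 260, 609, 223 and 263, where WT 2 was above all others (-0.02 ± 0.36, adjusted p = 0.992). Sult4a1, known from brain, was below the detection limit with 3 to 16 counts per library and had the lowest p of this group (log2 difference 0.93 ± 0.58, adjusted p = 0.475). Sult1a1 had the lowest fitted value of all detected members, -0.45 ± 0.28 (adjusted p = 0.488).

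Of the 9 called genes 1 held a response motif known from drug metabolism genes at its start, a count that was not compared with other genes by a test. RefSeq promoters (250 bases before to 50 after the start, GRCm38.p6) were given for 57 of the 64 genes, for 36 of the 38 detected and for all 9 called. The core of the antioxidant response element, TGACNNNGC on either strand, occurs in a promoter of 14% of all 27025 genes (12.4% of promoters). Of the 36 detected genes with a promoter 4 hold it, Gsta3, Gstm5, Gstm7 and Mgst1, and of the 9 called genes 0 do. The 4 matches are shown with 6 bases on each side and the motif in capitals, on the strand of the gene (for Mgst1 the motif reads on the opposite strand).
Gsta3: caggcaTGACATTGCattttt
Gstm5: gcccacTGACCACGCggaggg
Gstm7: aagaccTGACAAAGCgaagcc
Mgst1: ggcttgGCACGGTCAggaggc
The xenobiotic response core GCGTG is found in 35.2% of all genes (32.4% of promoters), in 10 of the 36 genes and in 1 of the 9 called, Gsta1, where it spans the start (aaaggaGCGTGcacact). A consensus HNF1 site is found in 0.155% of all genes (0.14% of promoters) and in 0 of the 36. Letters in so short a window say nothing of binding.

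Of the genes that supply the co-substrates, 2 were called by DESeq2, which called 4.03% of all tested genes. Of 10 genes of glutathione supply 1 was called: Gclm, the modifier subunit of glutamate-cysteine ligase, with 1603, 1683, 1671 and 1662 normalised counts in CD1d-KO, compared with 1207, 1539, 1329 and 1390 in WT (log2 fold change 0.28 ± 0.08, adjusted p = 0.0241). The list had 5 fitted values on each side of 0. Of 8 genes of PAPS supply 1 was called, Papss1, which makes the sulfate donor (0.21 ± 0.06, adjusted p = 0.0312). Of 5 genes of UDP-glucuronic acid supply 0 were called by DESeq2 and 1 had an unadjusted p under 0.05, Ugp2, which makes UDP-glucose (0.15 ± 0.07, adjusted p = 0.289).

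Exporters moved in both directions. Of 13 tested genes of conjugate export and hydrolysis, 3 were called (23.1%), against 4.03% of all tested genes. This list was chosen with earlier results of these data known, and the shares were not compared by a test. Abcc3, which carries glucuronides across the basolateral membrane, fell from 6078, 6158, 5295 and 5689 in WT to 4215, 4459, 4746 and 4363 in CD1d-KO (log2 fold change -0.39 ± 0.07, adjusted p = 5.72e-06). Abcb1a, the P-glycoprotein, rose by 0.64 ± 0.12 (adjusted p = 1.17e-05). Its close paralog Abcb1b had at most 1.9 normalised counts in CD1d-KO against 66.8, 2.1, 64 and 53.8 in WT (adjusted p = 3.1e-06), so that WT 2 was like the CD1d-KO mice. Whether reads of the pair were split by the counting was not tested. Of 11 other conjugation enzymes 2 rose, the cysteine-conjugate acetyltransferase Nat8 (0.64 ± 0.19, adjusted p = 0.0239) and Acsm3, an acyl-CoA synthetase of medium-chain acids (0.64 ± 0.14, adjusted p = 0.000795). Of the called supply, export and conjugation genes, edgeR called Abcc3, Abcb1a and Acsm3, and its filter left out Abcb1b.

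Of 16 tested targets of the drug receptors CAR and PXR and of the aryl hydrocarbon receptor AHR, 7 were called, all higher in CD1d-KO, and 9 did not pass. Of all tested genes 4.03% were called, with 1.65% higher in CD1d-KO. The list median was 0.36, and no test compared this list with the others or with all genes. The list was chosen with earlier results of these data known. In edgeR 4 of 14 were called, Cyp2b10, Abcb1a, Cyp1a1 and Aldh1a1, where 0.589% of all tested genes were called higher. Cyp2b10, a CAR target, had 868, 1409, 2227 and 1078 normalised counts in CD1d-KO, compared with 491, 660, 490 and 468 in WT (log2 fold change 1.40 ± 0.32, adjusted p = 0.000869). CD1d-KO 3 was again the highest. Cyp1a1, the classical AHR target, had 160, 131, 92.9 and 23 against 9.82, 26.2, 15.5 and 17.1 (2.57 ± 0.48, adjusted p = 1.25e-05), with CD1d-KO 3 in the middle of its group. The others were Abcb1a, Aldh1a1 (1.14 ± 0.32), Cyp3a11 (0.98 ± 0.28), Aldh1a7 (0.88 ± 0.20) and Cyp2c65 (0.38 ± 0.12). Of the 16 fitted values 13 were higher in CD1d-KO and 3 lower. The lower ones were Tiparp (-0.05 ± 0.08, adjusted p = 0.882), Ahrr (-0.37 ± 0.59, adjusted p = 0.865) and Aldh3a1 (-5.95 ± 3.39, adjusted p = 0.411). Aldh3a1 had 0 counts in all CD1d-KO mice and 22.3 and 20.8 normalised counts in WT 3 and 4. Targets of NRF2, the factor that binds antioxidant response elements, had 1 of 20 called higher (Gclm) and 1 lower (Abcc3), with a median of -0.07. Of 16 sensors and regulators of these pathways 0 were called by DESeq2 and 2 had an unadjusted p under 0.05, Ppara with 0.31 ± 0.11 (adjusted p = 0.105) being the closest.

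Over 18 alternative fits, Mgst2 and Ugt2b36 were called in 17, Ugt2b35, Ugt1a9 and Gstk1 in 16, Gsta1 and Ugt2b5 in 11, and Gstm6 and Ugt2a3 in 9. The fit that ended most calls added the stomach marker score of each sample as a term, after which 2 members were called, Ugt2a3 and Sult1d1. The log2 fold changes of the other 8 genes then had standard errors 1.82 to 1.99 times as large, while the values were 0.61 for Mgst2, 0.56 for Ugt2b36, 0.32 for Ugt2b35, 0.96 for Ugt1a9, 0.58 for Gstk1, 0.34 for Gsta1, 0.38 for Gstm6 and 0.78 for Ugt2b5. That score ran from -2.558 to 0.145 in CD1d-KO and from 0.728 to 3.43 in WT without overlap, so that its part and that of the genotype cannot be told apart. With the enterocyte score as a term, 5 members were called, Mgst2, Ugt2b36, Ugt2b35, Ugt1a9 and Gstk1. Their log2 fold changes were then 0.52, 0.60, 0.34, 0.80 and 0.43. Those of the uncalled genes were 0.35 for Gsta1, 0.31 for Gstm6, 0.43 for Ugt2b5 and 0.31 for Ugt2a3. All but that of Ugt2b35 were lower than in the reported fit. The fitted values of all 9 genes were positive in each of the 18. These fits reuse mice from which the 9 were called, so the constant sign is no separate support.

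**Figure D5:**
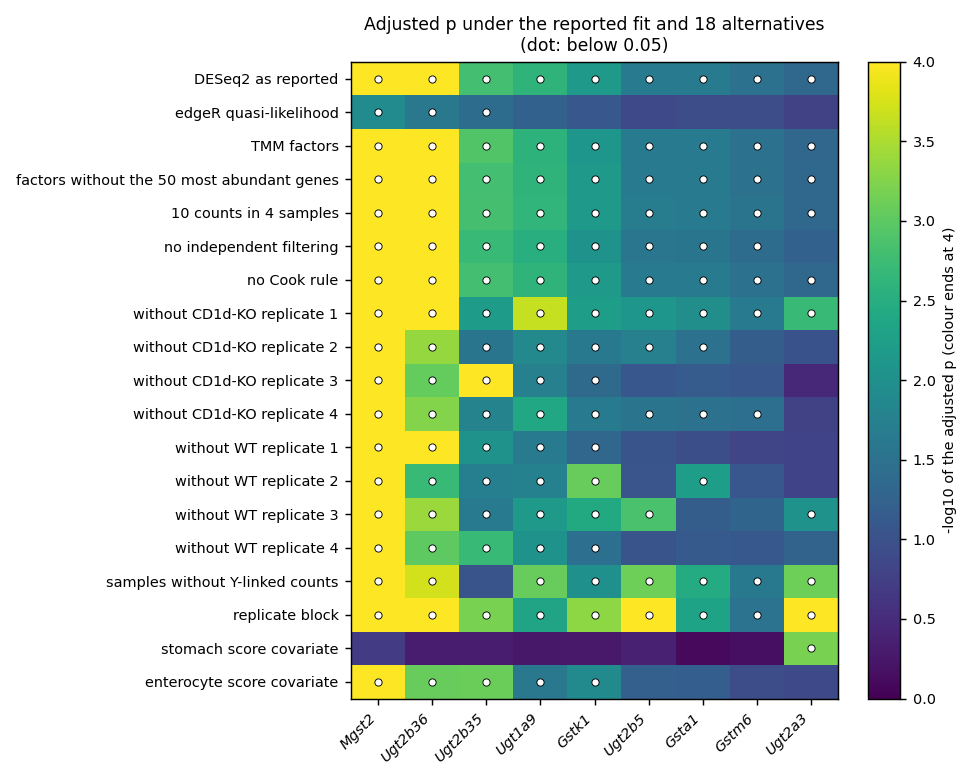
Adjusted p of the 9 called members (columns) in the reported fit and 18 alternatives (rows), as -log10 with the colour ending at 4, a dot marking an adjusted p under 0.05. Mgst2 has a dot in 17 of the 18 alternatives and Ugt2a3 and Gstm6 in 9.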

How the data were processed

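Per the study's methods and labels, poly(A) libraries (KAPA mRNA HyperPrep, Illumina NovaSeq) were aligned with HISAT2 to GRCm39. The authors deposited raw counts per gene, made per the file header with featureCounts 1.6.4 on read pairs over mm10 exons, without strand and without pairs that overlap several genes. The builds named for the alignment and for the counting differ, and positions are given here as mm10. All 8 sample columns were used (0 others).

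The counts were tested with DESeq2 1.42.0 (R 4.3.3), genotype as the only term, median-of-ratios size factors, independent filtering, Cook's rule and Benjamini-Hochberg adjustment over 15446 genes, with 0.05 as the threshold for a call. The 18 alternatives included edgeR 4.0.16 (quasi-likelihood), other scalings and filters, leaving out each of 8 samples, marker scores as terms and a replicate block. On simulated counts both tools recovered large changes with their sign. Unchanged genes made up more of the calls of DESeq2 than its nominal rate, and of those of edgeR about that rate. The adjusted p of DESeq2 were thus liberal on the simulated counts and may be so here. The simulation held no outlying mouse and no differences in cell types. Detection meant a mean of at least 10 counts. Sequence shared with other genes was read from GENCODE vM39 transcripts. Replicates differed beyond sampling noise, so no library was a copy of another.

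Members, gene lists and tests were chosen with earlier results of these data known. Genes named with values were every called member, per class the 2 detected members of highest level and the one with the lowest p, every Ugt1 gene, and the called genes of each list or else that with the lowest p. Others were named after their values were seen. Libraries held 23610266 to 31629435 counts, and counts near 10 are the least precise.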

Additional observations from a re-analysis of the deposited data

Results flagged for a closer look

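In groups of 4 mice, a mouse whose gap to its nearest neighbour exceeded Dixon's 95% critical share of the range of its group was marked, a rule that chance meets in about 1 in 20 groups. It was met in 10 of the 76 groups formed by 38 detected members and 2 genotypes. CD1d-KO 3 was the mouse in 7 of these, each time above its group, with normalised counts of 1264 for Gsta1, 4204 for Gstm1, 11341 for Gstm3, 630 for Gstm4, 721 for Gstm6, 2408 for Gstp1 and 2279 for Gstz1. CD1d-KO 4 was above its group for Gsta2 (46.1), WT 3 for Sult1c2 (325) and WT 2 for Sult6b2 (609). Gsta2, Gstm4 and Sult1c2 are named here for this reason only.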

How the results depend on the processing

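Leaving out 1 mouse at a time gave 5 to 9 called members, all higher in CD1d-KO and 0 lower, and 7 to 14 called genes of the pathway lists (13 as reported). The counts of 5 came without CD1d-KO 3, WT 1 or WT 4. By edgeR there were 3 called members, all higher, and 6 called pathway genes. With the stomach score as a term there were 2 members, both higher, and 2 pathway genes, and with the enterocyte score 5 members, all higher. The median log2 fold change of a class ranged, without 1 mouse, from 0.33 to 0.54 for Gsta, 0.12 to 0.34 for Gstm, -0.09 to 0.09 for Gstp, 0.04 to 0.13 for Gstt, 0.06 to 0.28 for the group of Gsto, Gstk and Gstz, 0.03 to 0.18 for Mgst, 0.25 to 0.76 for Ugt1, 0.28 to 0.48 for Ugt2, 0.08 to 0.33 for Sult1 and -0.13 to 0.20 for the other Sult genes. It was 0.41 for Gstm in the mice without Y-linked counts. With the stomach score as a term it was 0.16 for Gstm, 0.26 for Gsto, Gstk and Gstz, 0.33 for Mgst, 0.68 for Sult1 and 0.84 for the other Sult genes. The cause of these shifts was not tested. TMM factors, factors without the 50 most abundant genes, a filter of 10 counts in 4 samples and no Cook rule each left 9 called members, and no independent filtering left 8.

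The replicate numbers of the labels are shared between genotypes. The correlations of the deviations of same-numbered mice were 0.103, 0.011, 0.147 and -0.04. Those of mice with different numbers ran from -0.19 to 0.168, so same-numbered mice were not more alike. Such small correlations cannot decide whether the mice were paired or which of them shared an experiment. A fit with the replicate block called 12 members, the 9 and Ugt1a1, Ugt1a7c and Sult1d1.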

Other observations

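Summed over all members, the level (counts per kilobase of unshared exon per 1000000) was 2239, 2369, 2883 and 2497 in CD1d-KO 1 to 4 and 1957, 2261, 2309 and 2169 in WT 1 to 4, with overlap. The theta class (87.4 to 98.2 in CD1d-KO and 80.2 to 86.8 in WT) and the UGT1 family (268 to 315 and 204 to 262) did not overlap between genotypes in their sums, and the other 8 classes did. For theta the gap was small, from 86.8 to 87.4. Of all single tested genes 4.09% were higher in CD1d-KO without overlap of normalised counts and 5.52% lower. The sums were not tested. The Gstm sum was 556 in CD1d-KO 3 and 264 to 272 in the other CD1d-KO mice, beside 211 to 275 in WT.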
